A study of Mus musculus with 40 samples.

Results

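The RNAs that encode the splicing machinery were followed in mouse oocytes that lacked G9a, or both G9a and Glp. The set was chosen by gene name. It took every transcript locus whose overlapping same-strand gene has a symbol starting with Srsf, Snrp (without Snrpn), Sf3a, Sf3b, Hnrn, Prpf, U2af, Lsm followed by a digit, or Rbm followed by a digit. This gave 94 loci of 92 genes, out of 38540 loci in the table and 15023 loci that overlap a named gene on the same strand. Hnrnpm and U2af1l4 are represented by 2 loci each, and the second locus of either gene does not overlap the RefSeq position of the gene. A further 43 loci match by name but lie on the other strand, beside the gene, or belong to Snrpn, and were left out. Some spliceosome genes with other names, among them those starting with Snrnp, fall outside this rule and are described separately.

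A spliceosome is built anew on each intron from small nuclear ribonucleoproteins (snRNPs), which are complexes of a small RNA with a ring of Sm or Lsm proteins and with proteins specific to each complex. U1 recognises the 5′ splice site, U2 and the U2AF proteins recognise the branch point and the 3′ splice site, and the tri-snRNP of U4, U6 and U5 then brings in the catalytic core. SR proteins, hnRNP proteins and many RBM proteins bind the transcript and influence which splice sites are used. Transcription stops near the end of oocyte growth, so a fully grown oocyte depends on the RNAs it has stored.

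All samples were pools of 100 to 200 oocytes at the germinal-vesicle stage, before meiotic maturation, dissected by hand from mice 22 to 25 days old. G9A (gene Ehmt2) and GLP (gene Ehmt1) form a methyltransferase pair that writes H3K9me2, the dimethyl mark of lysine 9 on histone H3, found in silent chromatin. RNA was sequenced from 3 Control pools and 3 G9a cKO pools whose titles start with GKAO, and from 3 Control pools and 2 G9a-Glp cDKO pools whose titles start with GKAQ. "cKO" and "cDKO" denote conditional deletion of G9a and of G9a with Glp. Titles mark the control pools as WT, and the Cre driver, the strain and the alleles that the control females carry were not given in the sources used here. Each mutant was compared with the Control pools that share its prefix, called GKAO controls and GKAQ controls here. The labels do not say whether pools came from separate animals, so p-values measure the spread between pools.

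The RNA libraries were scaled to between 1458868 and 2399680 reads. Values are reads per 1000000 reads of a library (RPM), of which the authors deposited the log2. The 13 oocyte markers summed to between 14534 and 17737 RPM in each library. The 13 granulosa cell markers summed to 186 to 196 RPM in GKAO controls, 138 to 165 in G9a cKO, 136 to 160 in GKAQ controls and 119 to 146 in cDKO. Both matched haemoglobin genes were at 0 in every library, and the theca and stroma list reached at most 5 RPM, with Col1a2 and Lum at 0 throughout. The part of these surrounding cells in the results below was not tested. Ehmt1 had 144, 164 and 173 reads in GKAQ controls and 31 and 36 in cDKO (limma adjusted p = 1.09e-21). Ehmt2 had 12, 13 and 9 reads in GKAO controls and 5, 11 and 2 in G9a cKO (limma adjusted p = 0.0971), so the G9a cKO library with 11 reads lay within the control range. In cDKO, Ehmt2 had 5 and 5 reads against 8, 30 and 16 in GKAQ controls (limma adjusted p = 0.121), with both cDKO counts below the controls. In bulk pools a lower RNA per oocyte and a smaller share of the oocytes expressing it cannot be told apart.

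Most of the splicing machinery was well represented in oocyte RNA. Of the 94 loci, 79 (84.0%) averaged at least 10 RPM over the 11 libraries, the level called detected here, against 46.2% of all named loci. Together the 94 loci took 1.267%, 1.27% and 1.301% of the reads in GKAO controls and 1.253%, 1.264% and 1.276% in G9a cKO. They took 1.373%, 1.327% and 1.353% in GKAQ controls and 1.262% and 1.261% in cDKO. The cDKO share was below every GKAQ control and within the range of the other libraries. Of the 15 loci under 10 RPM, Rbm43 had no read anywhere, and Rbm11, Rbm46, Srsf12 and the second U2af1l4 locus had at most 3 reads in any library. The other 10 were Lsm12, Prpf4, Snrpg, Srsf9, Hnrnpl, Rbm10, Rbm12b, Rbm41, Rbm47 and the second Hnrnpm locus. Because the locus lengths used for counting were not given, levels are compared between libraries and not between genes.

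Loss of G9a alone left no splicing factor RNA past the threshold. With limma and Benjamini-Hochberg adjustment over all loci, 0 of the 94 loci were called at an adjusted p under 0.05, where 1.79% of all loci and 5.22% of detected loci were called. At an unadjusted p under 0.05 there were 16 of the 94, beside 4044 of all 38540 loci. Among detected loci there were 13 of 79, beside 1926 of 9091. The smallest adjusted p was 0.116, for Sf3a3, a subunit of the U2 snRNP. For 43 of the 79 detected loci the 95% interval of the log2 fold change lay within 0.5 of 0 on either side, and for 70 it lay within 1. The median log2 fold change of the detected splicing factors was -0.03, beside 0.01 for all detected loci. All 3 G9a cKO libraries lay above the 3 GKAO controls for 7 of the 79 detected loci (8.9%) and below for 5 (6.3%), beside 13.6% and 11.6% of all detected loci. When the 6 controls were pooled, 3 were called, all lower, namely Sf3a3 (-0.48, limma adjusted p = 0.00144), Snrpc (-0.75, limma adjusted p = 0.000705) and Rbm7 (-0.47, limma adjusted p = 0.0169).

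In cDKO oocytes 11 splicing factor RNAs fell and 1 rose. The 12 loci called with limma are 15.2% of the detected splicing factor loci, and 15.8% of all detected loci were called (6.34% of all loci), so the share called in either direction was near the background. The directions were unequal: 13.9% of the detected splicing factors fell and 1.3% rose, beside 7.18% and 8.63% of all detected loci. No test of that imbalance was made. The background split depends on scaling, because after centring each library on the median of its detected loci 547 detected loci were called higher and 985 lower, and 17 splicing factors were called, all of them lower. The largest falls were in Hnrnph2, Rbm44, Hnrnpul1 and Snrpc, and the smallest adjusted p-values belonged to Rbm25, Hnrnpd and Prpf6.

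**Figure D1:**
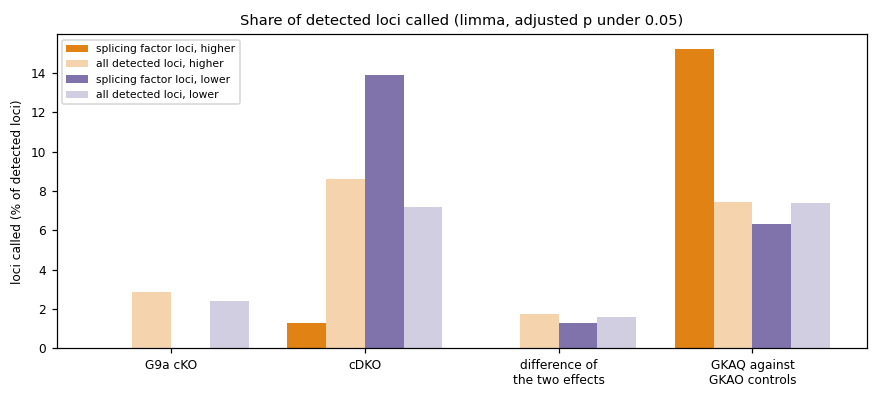
Share of detected loci called higher (orange) or lower (purple) in each comparison, for the 79 detected splicing factor loci (dark bars) and all 9091 detected loci (pale bars), as a percentage. In cDKO 13.9% of the splicing factors were lower and 1.3% higher, and between the control groups 15.2% were higher and 6.3% lower.

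The 12 calls rest on 2 cDKO pools and on the GKAQ controls. All 12 had both cDKO libraries outside the range of the 3 GKAQ controls. The calls were made on these same libraries, so this separation adds no support to them. For 5 of them, Hnrnph2, Rbm44, Hnrnpul1, Prpf6 and Rbm25, both cDKO libraries were below all 6 controls. Among the 79 detected loci, 18 (22.8%) had both cDKO libraries below the 3 GKAQ controls, as had 21.2% of all detected loci, and 9 (11.4%) had both above, beside 27.5%. Set against all 6 controls, both cDKO libraries were below for 8 (10.1%) and above for 6 (7.6%), beside 10.9% and 16.5% of all detected loci. The calls also depend on the transformation, the variance model and the loci kept. Without limma's trend and robust options 0 splicing factors were called, with log2(RPM + 1) 0, and with voom precision weights 5 (Hnrnpul1, Lsm14b, Prpf6, Rbm19 and Rbm33). After loci under 1 RPM were removed, settings added after seeing the data, these 3 fits gave 0, 13 and 13. Leaving out a GKAO library, whose group is not part of this comparison, kept the count at 12 each time. Leaving out a GKAQ control gave 7 to 10 calls, with Rbm25 and Prpf6 called each time. With either cDKO pool left out, the log2 fold change was -0.39 or -0.30 for Rbm25 and -0.55 or -0.36 for Prpf6.

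**Figure D2:**
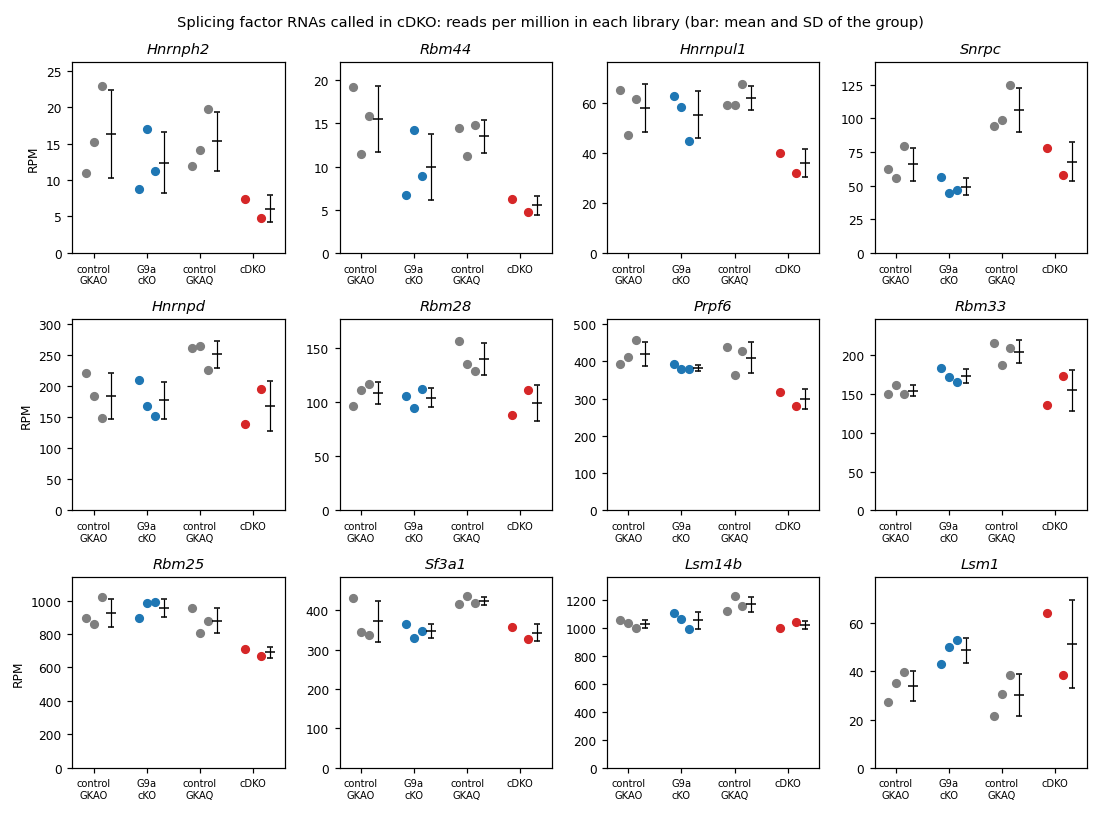
RPM in each library for the 12 splicing factor loci called in cDKO, with a point per pool by group and a bar for the group mean and SD. The cDKO pools (red) lie outside the 3 GKAQ controls in every panel, and below all 6 controls for Hnrnph2, Rbm44, Hnrnpul1, Prpf6 and Rbm25. For Lsm1 a cDKO pool is all but level with the highest GKAQ control.

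Among U1 snRNP proteins, which bind the 5′ splice site, Snrpc encodes the zinc-finger subunit that steadies this pairing and Snrpa a subunit that binds a stem-loop of the U1 RNA. Snrpc measured 94.3, 98.8 and 125 RPM in GKAQ controls and 78.01 and 57.5 in cDKO, and 62.4, 55.5 and 79.1 RPM in GKAO controls and 56.4, 44.2 and 47.1 in G9a cKO. Its RNA fell in cDKO (-0.65 on the log2 scale, SE 0.19, limma adjusted p = 0.0116), but the cDKO libraries lay within the range of the GKAO controls, where Snrpc was lower than in the GKAQ controls. The call was lost without GKAQ control replicate 3 (limma adjusted p = 0.168) or without cDKO replicate 2 (0.396). In G9a cKO the change was -0.41 (limma adjusted p = 0.23). Snrpa changed by -0.46 in cDKO (95% interval -0.97 to 0.05, limma adjusted p = 0.413).

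U2 snRNP proteins make up the SF3A and SF3B complexes, which hold U2 at the branch point. Of 9 detected members 1 fell in cDKO. Sf3a1, the largest SF3A subunit, measured 416, 435 and 418 RPM in GKAQ controls and 358 and 327 in cDKO (log2 fold change -0.31, SE 0.09, limma adjusted p = 0.0258). In GKAO controls it measured 431, 345 and 338 RPM, a range that holds 1 of the 2 cDKO values, and leaving out any single GKAQ control ended the call (limma adjusted p from 0.0566 to 0.123), as did leaving out cDKO replicate 2 (0.278). Sf3b1, the SF3B subunit that contacts the branch point, changed by 0.13 in cDKO (95% interval -0.05 to 0.31, limma adjusted p = 0.565). Sf3b2 changed by -0.03 (95% interval -0.19 to 0.12, limma adjusted p = 0.771). Sf3a3 gave 239, 199.5 and 206 RPM in GKAO controls and 163, 164 and 194 in G9a cKO, so all G9a cKO values lay below all GKAO controls, with a log2 fold change of -0.31 that missed the threshold (limma adjusted p = 0.116).

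The U2AF proteins, which read the 3′ splice site, gave no call in either mutant. U2af1, the small subunit that reads the AG dinucleotide, measured 88.6, 89.6 and 71.96 RPM in GKAQ controls and 113 and 86.5 in cDKO. Its cDKO change was 0.26 (95% interval -0.05 to 0.56, limma adjusted p = 0.496), and its G9a cKO change was -0.02 (-0.29 to 0.25). U2af2, the large subunit that binds the polypyrimidine tract, changed by -0.09 in cDKO (95% interval -0.40 to 0.21, limma adjusted p = 0.692). For the main locus of U2af1l4, a paralogue of U2af1, the cDKO change was 0.18 (95% interval -0.11 to 0.47), and this locus overlaps another on the opposite strand.

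Of the 3 detected tri-snRNP loci in the named set, Prpf6 fell in cDKO, and Prpf3 and Prpf8 were not called. PRPF6 bridges the U5 and U4/U6 parts of the tri-snRNP. Prpf6 (ENSMUSG00000002455, 2:181601062-181655670, plus strand) measured 439, 362 and 428 RPM in GKAQ controls and 318 and 279 in cDKO, and 393, 411 and 456 in GKAO controls and 392, 379 and 378 in G9a cKO. Both cDKO pools were lower than each of the other 9 libraries. The log2 fold change in cDKO was -0.46 (SE 0.09, limma adjusted p = 9.45e-05), against -0.13 (SE 0.08, limma adjusted p = 0.258) in G9a cKO. The difference between these effects was -0.32 and was not called (limma adjusted p = 0.169). Prpf8, the scaffold of the catalytic core, was measured closely, with 395, 422 and 348 RPM in GKAQ controls and 385 and 393 in cDKO. Its log2 fold change was 0.01 in cDKO (95% interval -0.18 to 0.19) and 0.00 in G9a cKO (-0.16 to 0.16). Prpf3, a U4/U6 protein, changed by 0.11 in cDKO (95% interval -0.14 to 0.36). The other Prp proteins gave no call in 7 detected loci. The nearest was Prpf38b, at 418, 310.5 and 310.0 RPM in GKAQ controls and 288 and 274 in cDKO (-0.29, limma adjusted p = 0.0631), which was called after centring (limma adjusted p = 0.00546). Prpf4b, a kinase that phosphorylates other Prp proteins, changed by -0.10 (95% interval -0.43 to 0.24).

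The Sm proteins, which form the ring around the U1, U2, U4 and U5 RNAs, gave no call in either mutant among 5 detected loci. Snrpd1 changed by -0.01 in cDKO (95% interval -0.30 to 0.28), Snrpd2 by -0.22 (-0.76 to 0.33) and Snrpd3 by -0.35 (-0.70 to -0.01). In G9a cKO Snrpd1 and Snrpd2 had log2 fold changes of -0.35 and -0.67 that missed the threshold (limma adjusted p = 0.192 and 0.174).

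The Lsm proteins include the ring of the U6 RNA and of mRNA decay, and 2 of 10 detected members were called in cDKO. Lsm1, the subunit specific to the decay ring of the cytoplasm, was the only splicing factor that rose. It measured 21.4, 30.8 and 38.5 RPM in GKAQ controls and 64.3 and 38.5 in cDKO, and 27.4, 35.1 and 39.9 in GKAO controls and 43.00, 50.3 and 53.2 in G9a cKO. Only 1 cDKO library stood clear, and the other was level with the highest GKAQ control to 3 digits. The log2 fold change was 0.76 (SE 0.23, limma adjusted p = 0.0236), and the call was lost without GKAQ control replicate 1 (limma adjusted p = 0.137), without cDKO replicate 1 (0.694) and after centring. A locus on the opposite strand that overlaps Lsm1 also rose (log2 fold change 0.66, limma adjusted p = 7.92e-05), and since it is not stated whether counting used strand, reads of the 2 loci cannot be told apart.

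Lsm14b, a translation regulator of stored oocyte RNAs despite its Lsm name, fell slightly. It measured 1122, 1229 and 1159 RPM in GKAQ controls and 999.8 and 1039.8 in cDKO, against 1054, 1038 and 997 in GKAO controls. The cDKO values were thus below the GKAQ controls and inside the range of the GKAO controls. The 2 loci on the opposite strand of Lsm14b had at most 3 reads in any library. The log2 fold change of -0.20 (SE 0.06, limma adjusted p = 0.0307) was lost without GKAQ control replicate 2 (limma adjusted p = 0.247) or 3 (0.0841) and without cDKO replicate 1 (0.224). Its paralogue Lsm14a changed by -0.05 (95% interval -0.21 to 0.11), and Lsm6, of the U6 ring, by -0.37 (-0.73 to -0.01, limma adjusted p = 0.278).

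SR proteins, which bind exonic enhancers and recruit U1 and U2AF, gave no call in either mutant among 7 detected loci. Srsf4 changed by -0.15 in cDKO (95% interval -0.39 to 0.10), Srsf5 by 0.17 (-0.19 to 0.54) and Srsf10 by 0.14 (-0.19 to 0.47). Srsf7 is named after its values were seen, because it had the smallest adjusted p of the SR proteins in cDKO. It measured 21.4, 16.7 and 24.1 RPM in GKAQ controls and 46.1 and 30.2 in cDKO, both above all 6 controls (0.87, limma adjusted p = 0.0677), and was called when the 6 controls were pooled (limma adjusted p = 0.00722).

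**Figure D3:**
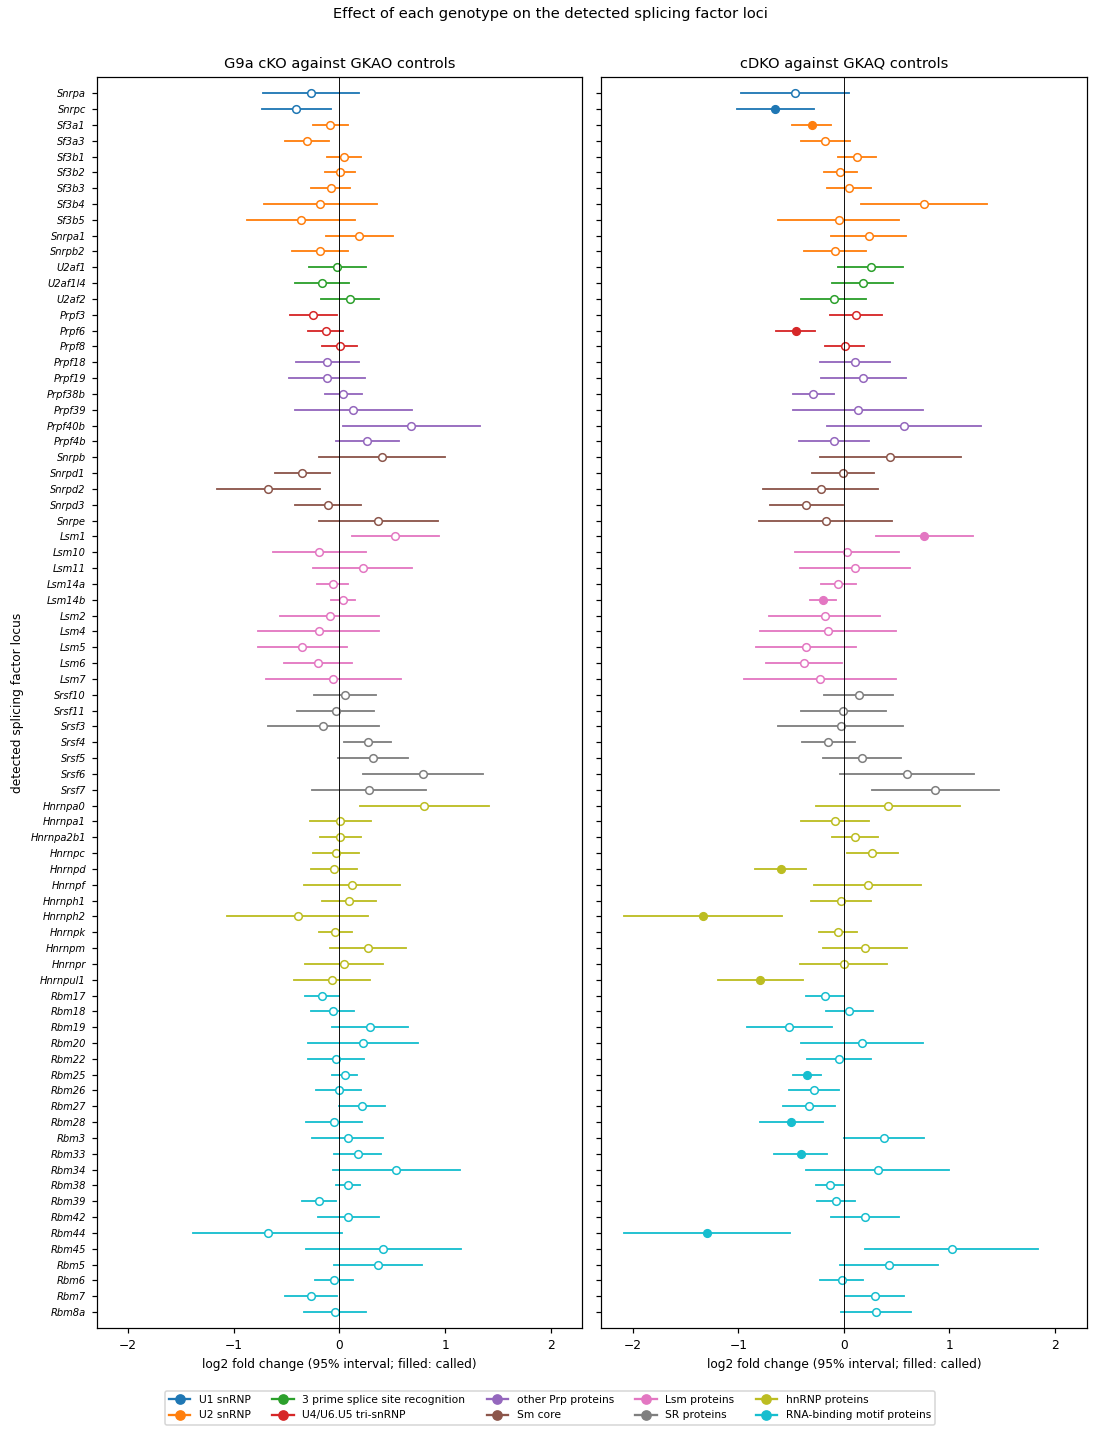
Log2 fold change with its 95% interval for 78 of the 79 detected splicing factor loci, coloured by role, in G9a cKO against GKAO controls (left) and cDKO against GKAQ controls (right), with filled points for called loci. No point is filled on the left, and on the right 11 are filled below 0 and 1, Lsm1, above it.

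The hnRNP proteins coat nascent transcripts and often repress splice sites, and 3 of 12 detected loci fell in cDKO. Hnrnpul1, an RNA- and DNA-binding member with a role in DNA repair (ENSMUSG00000040725, 7:25721075-25756209, minus strand), measured 59.1, 59.2 and 67.5 RPM in GKAQ controls and 39.9 and 32.01 in cDKO, and 65.1, 47.1 and 61.5 in GKAO controls and 62.6, 58.5 and 44.7 in G9a cKO. Both cDKO pools lay below the 9 other libraries. This was a log2 fold change of -0.79 (SE 0.21, limma adjusted p = 0.0042), and without cDKO replicate 2 the adjusted p was 0.135. Hnrnph2, an X-linked protein that binds G-rich tracts (ENSMUSG00000045427, X:134601139-134607060, plus strand), rests on few reads, 19, 34 and 40 in GKAQ controls and 13 and 8 in cDKO. That is 11.9, 14.2 and 19.7 RPM against 7.40 and 4.74 RPM, beside 10.97, 15.2 and 22.9 in GKAO controls. The log2 fold change of -1.33 had an SE of 0.38 (limma adjusted p = 0.0119) and was lost without GKAQ control replicate 3 (0.127) or cDKO replicate 2 (0.245). The paralogue Hnrnph1 changed by -0.03 in cDKO (95% interval -0.31 to 0.26).

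Hnrnpd encodes AUF1, which binds AU-rich elements and controls mRNA decay (ENSMUSG00000000568, 5:99956367-99979053, minus strand). It measured 262, 264 and 226 RPM in GKAQ controls and 139 and 196 in cDKO, and 221, 183 and 148 in GKAO controls and 210.0, 168 and 152 in G9a cKO. The cDKO pools were below the GKAQ controls, and 1 of them lay within the range of the GKAO controls. Against the GKAQ controls the log2 fold change was -0.60 (SE 0.12, limma adjusted p = 8.21e-05). It was -0.37 against the 6 controls pooled (limma adjusted p = 0.0778), and the adjusted p was 0.19 without cDKO replicate 1. A locus on the opposite strand, which spans the 5′ end of Hnrnpd, had 144, 183 and 147 reads in GKAQ controls and 55 and 82 in cDKO (log2 fold change -1.02, limma adjusted p = 0.000153), and 68, 77 and 55 reads in GKAO controls. Hnrnpd and this locus therefore fell together, and reads of the 2 strands may have been counted for both. Hnrnpk changed by -0.06 in cDKO (95% interval -0.23 to 0.12) and Hnrnpa2b1 by 0.10 (-0.11 to 0.32).

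Among the RBM proteins, 4 of 21 detected loci fell in cDKO. Rbm25, a U1-associated regulator that promotes the use of 5′ splice sites (ENSMUSG00000010608, 12:83631236-83685125, plus strand), had the smallest adjusted p of all splicing factors. It measured 956, 807 and 875 RPM in GKAQ controls and 712 and 668 in cDKO, and 897, 862 and 1019.6 in GKAO controls and 895, 984 and 989.8 in G9a cKO. Both cDKO pools were lower than the 9 other libraries. Rbm25 changed by -0.35 on the log2 scale (SE 0.07, limma adjusted p = 2.75e-05) in cDKO and 0.05 (SE 0.06, limma adjusted p = 0.584) in G9a cKO.

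Rbm44, a germ cell protein of intercellular bridges, measured 14.5, 11.2 and 14.8 RPM in GKAQ controls and 6.26 and 4.74 in cDKO, from 23, 27 and 30 and 11 and 8 reads. The G9a cKO libraries gave 6.68, 14.2 and 8.95 RPM and the GKAO controls 19.2, 11.5 and 15.8. Both cDKO pools were below all 6 controls (-1.30, SE 0.40, limma adjusted p = 0.0241), and the call was lost without GKAQ control replicate 1 (limma adjusted p = 0.0869) or 3 (0.104) and without either cDKO library (0.052 and 0.225). Rbm28, a protein linked to ribosome and snRNA biogenesis, measured 156, 135 and 128 RPM in GKAQ controls and 87.7 and 111 in cDKO (-0.50, SE 0.15, limma adjusted p = 0.0218), and 96.7, 111 and 117 RPM in GKAO controls. Rbm33, an RNA-binding adaptor linked to m6A demethylation, measured 216, 188 and 209.5 RPM in GKAQ controls and 136 and 174 in cDKO (-0.41, SE 0.13, limma adjusted p = 0.0284), and 150.1, 162 and 151 RPM in GKAO controls.

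For both Rbm28 and Rbm33 the cDKO values lay below the GKAQ controls, and their range overlapped that of the GKAO controls. Rbm28 lost its call without GKAQ control replicate 1 (limma adjusted p = 0.137) or 2 (0.0524) or cDKO replicate 1 (0.488), and Rbm33 without GKAQ control replicate 1 (0.128) or 3 (0.118) or cDKO replicate 1 (0.694). Rbm17, a U2-associated alternative splicing factor, changed by -0.18 in cDKO (95% interval -0.36 to 0.00), and Rbm38, a regulator of mRNA stability, by -0.13 (-0.26 to -0.01). Both were called lower after centring (limma adjusted p = 0.0494 and 0.0128).

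Of the 94 loci, Rbm25 alone had an effect that differed between the mutants in the test of the difference itself. The difference of the log2 fold changes was -0.40 (95% interval -0.58 to -0.22, limma adjusted p = 0.00368), a test that called 1.08% of all loci and 3.34% of detected loci. It passed in all 11 fits that left out a library. The call was lost with voom weights (limma adjusted p = 0.232), with log2(RPM + 1) (0.37), without the trend and robust options (0.232, and 0.442 after a filter at 1 RPM) and with a block on the title number (0.1). After centring, Lsm14b, Rbm33, Hnrnpd and Rbm27 were called as well, all with the lower value in cDKO. With the 6 controls pooled the test compares the mutants directly, control series included, and 7 were called, with Rbm25 and Hnrnpk lower in cDKO and Sf3a3, Rbm7, Hnrnph1, Hnrnpc and Srsf7 higher. Without GKAQ control replicate 1 the count rose to 11, in a fit that called 14705 of all loci. For the other 11 loci called in cDKO, G9a cKO gave no call, but a difference between the mutants was not shown.

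The 2 control groups, both marked WT, also differed in splicing factors. In GKAQ against GKAO controls 17 loci were called with limma, 12 higher and 5 lower, or 21.5% of the detected splicing factors beside 14.8% of detected loci (3.87% of all loci). By direction, 15.2% of them were higher and 6.3% lower, beside 7.42% and 7.38% of detected loci. Litter, strain and processing day are not given for the 2 series, so what sets them apart was not tested. Hnrnph1, an hnRNP that binds G-rich tracts, measured 103, 87.98 and 101 RPM in GKAO controls and 189, 146 and 169.6 in GKAQ controls (0.79, SE 0.13, limma adjusted p = 2.53e-07), with no overlap. Snrpe rose by 1.01 (limma adjusted p = 0.0149), Snrpc by 0.69 (0.00155), U2af2 by 0.58 (0.00186) and Hnrnpd by 0.46 (0.00154). Also higher were Rbm33, Rbm7, Rbm26, Hnrnpc, Sf3a3, Rbm38 and Lsm14b, by 0.18 to 0.40.

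Lower in the GKAQ controls were Rbm3, a cold-induced RNA-binding protein (-0.72, limma adjusted p = 0.00162), U2af1 (-0.56, 0.00327), Sf3b3 (-0.47, 6.37e-05), Hnrnpk (-0.42, 2.11e-05) and Lsm14a (-0.29, 0.00403). Hnrnpd, Lsm14b, Rbm33 and Snrpc were called in both this comparison and cDKO against GKAQ controls, higher in the first and lower in the second. The comparisons share the GKAQ control libraries. Of these 4, none was called lower in cDKO against the 6 controls pooled. In that fit 9 splicing factors were called, with Rbm44, Prpf6, Hnrnpul1, Rbm25 and Hnrnph2 lower and Rbm7, Hnrnpc, Srsf7 and Rbm41 higher.

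Other genes of splicing outside the name rule were taken from lists of spliceosome subunits, regulators, SR protein kinases, snRNP assembly factors and Snrnp genes, and 96 of the 116 were in the table. In G9a cKO 2 of the 96 rose and 3 fell, and in cDKO 4 rose and 9 fell. Of the 84 detected ones 4.8% and 13.1% were called, beside 5.22% and 15.8% of all detected loci, so these shares were near the background. Aqr, an RNA helicase that joins the spliceosome at the intron, rose in both mutants. It measured 79.5, 79.1 and 84.97 RPM in GKAO controls and 147, 191 and 149 in G9a cKO (0.99, SE 0.13, limma adjusted p = 9.23e-11), and 115, 80.8 and 102 RPM in GKAQ controls and 202 and 210.5 in cDKO (1.07, SE 0.15, limma adjusted p = 1.54e-10). Neither mutant overlapped its controls. Srpk3, a muscle-type kinase of SR proteins, also rose in both, from 0, 0 and 0 reads to 5, 6 and 12 in G9a cKO and from 0, 0 and 5 to 22 and 20 in cDKO (limma adjusted p = 0.012 and 3.63e-05). Its fitted log2 values of 2.66 and 3.92 depend on the value given to empty loci.

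Further calls in G9a cKO were falls of Magoh, an exon junction complex subunit (-0.51, limma adjusted p = 5.87e-06), Srpk1, the main SR protein kinase (-0.35, 0.0328), and Crnkl1, a subunit of the activated spliceosome (-0.20, 0.04). Of 22 alternatives, 13 ended the call for Crnkl1 (limma adjusted p up to 0.474), 11 for Srpk1 (0.279) and 8 for Magoh (0.812). In cDKO, Khdrbs2 (2.33, 0.00795) and the helicase Ddx39b (0.57, 0.0268) rose, calls that 8 and 10 of 22 alternatives ended (limma adjusted p up to 0.413 and 0.648). Only 2 of the 4 rises in cDKO were at detected loci, and Khdrbs2, like Srpk3, was not among them. For either mutant the 22 alternatives include fits without a library of the other series. Those fits leave the fold change as it was, so a call kept there adds no support. The 5 largest of the 9 falls in cDKO were in Magohb (-1.66, 0.0062), Cwc27 (-0.56, 0.0164), the helicase Dhx38 (-0.51, 0.00411), Snrnp200, the U5 helicase that unwinds U4 from U6 (-0.49, 0.000527), and Zrsr2, of the minor spliceosome (-0.48, 0.000509). Magohb and Cwc27 lost the call in 9 of 22 alternatives each, Zrsr2 in 5, Snrnp200 in 4 and Dhx38 in 2. Eftud2, a partner of Snrnp200 in U5 that is named after its values were seen, fell too (-0.40, 0.00795, lost in 6 of 22 alternatives), beside the -0.46 of Prpf6 and the 0.01 of Prpf8.

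H3K9me2 over the splicing factor loci was read from 10 kb windows in 2 libraries per genotype. Depth differed with genotype, with control libraries scaled to 7048784 and 19128881 reads, those of G9a cKO to 1857144 and 1109191 and the cDKO pair to 1723142 and 1881848, and its part in the values below was not tested. Scaling to each library's own reads compares how the reads are spread over the genome and not how much of the mark there is in total. Input and IgG libraries were not used, so reads from the mark and from background cannot be told apart, also where the writers are deleted. The median over the 94 loci was 3.15 and 3.35 RPM per window in the control libraries, 3.3 and 3.34 with G9a deleted and 4.06 and 4.25 in the cDKO pair. For detected named loci it was 3.59 and 3.5, then 3.77 and 3.95, then 4.29 and 4.25. For named loci under 1 RPM in RNA it was 4.11 and 4.06, then 3.5 and 3.61, then 3.87 and 3.99. The median of the splicing factor loci lay below that of detected genes in each control and G9a cKO library and in 1 of the 2 cDKO libraries. In the other cDKO library both medians were 4.25. The sets are unlike, because 15 of the 94 loci were not detected in RNA, and the difference was not tested. Of 336 windows that touch a splicing factor locus, 1 was called in G9a cKO, higher, with 1.85% of all tested windows called by limma. In cDKO 0 were called (0% of all tested windows). At an unadjusted p under 0.05 there were 33 of the 336, beside 22952 of all 255057 tested windows.

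Both cDKO libraries were above both controls over 50 of the 79 detected splicing factor loci (63.3%) and below both over 7 (8.9%), beside 56.3% and 10.2% of detected named loci. For the loci called in cDKO RNA, 7 of 12 had both cDKO H3K9me2 libraries above both controls and 1 had them below. Over Rbm25 the control libraries gave 2.15 and 2.07 RPM per window, G9a cKO gave 3.5 and 2.7, and cDKO gave 4.16 and 4.34. Over Prpf6 the control libraries gave 3.17 and 3.19, G9a cKO gave 4.22 and 2.7, and cDKO gave 5.71 and 4.34. These values rest on 91 and 238 control reads over the 6 windows of Rbm25, on 39 and 18 G9a cKO reads and on 43 and 49 cDKO reads, and for the 6 windows of Prpf6 on 134 and 366, 47 and 18, and 59 and 49. In both genes the cDKO libraries lay above the controls for scaled H3K9me2 reads, as over 56.3% of detected named loci, and below them for RNA. Whether this is a gain of the mark was not tested. Over Rbm25 both G9a cKO libraries also lay above the controls for scaled H3K9me2 reads, as over 39.3% of detected named loci, without a call in RNA. A link between the mark and RNA was not tested.

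**Figure D4:**
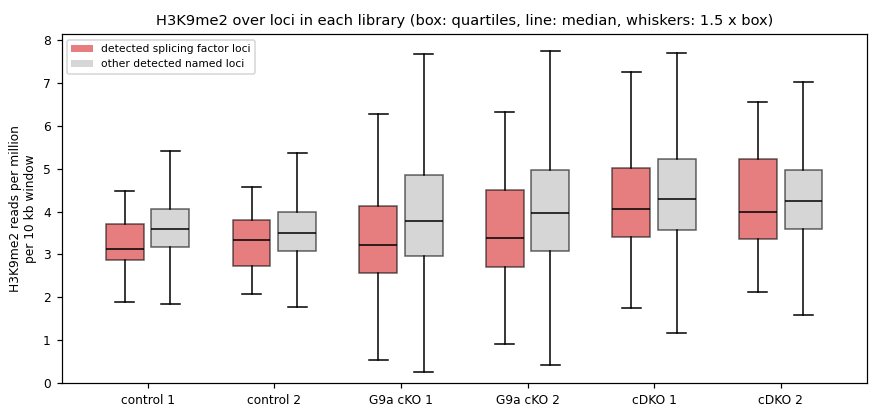
H3K9me2 signal in RPM per 10 kb window in each library, over the 79 detected splicing factor loci (red) and other detected named loci (grey), with boxes for quartiles, lines for medians and whiskers to 1.5 times the box. The red boxes sit lower than the grey in the controls, and both sets sit higher in the 2 cDKO libraries than in the controls.

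The start of each locus was compared with the promoter that RefSeq gives for the gene (GRCm38.p6). Of 64 detected splicing factor loci with a RefSeq promoter, 40 (62.5%) started within 300 bases of it and 11 (17.2%) started more than 1000 bases upstream, beside 64.2% and 16.0% of detected named loci. The farthest were Prpf3 at 15932 bases, Snrpc at 14765, Rbm26 at 13734, Hnrnpf at 7953, Lsm14b at 5347 and Rbm25 at 4474. Of these 11, Snrpc, Lsm14b, Rbm25 and Hnrnpul1 (1450 bases) were called in cDKO. Prpf3, Rbm26, Hnrnpf, Rbm38, Hnrnpa0, Snrpa1 and Hnrnpk were not. A link between a distant start and a call was not tested. A start is where the assembled locus begins, and no value here separates transcripts from different starts.

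For called genes whose locus begins near the RefSeq start, the 300 bases from 250 before the start to 50 after it are shown for Hnrnpd, over which the opposite-strand locus also lies, and for Prpf6 and Hnrnph2, which fell below all 6 controls. Capitals mark matches, on either strand, to CCGGAAG, the core of an ETS factor site, or to a CCAAT box, which is searched as those letters. Sequences are from RefSeq, 5′ to 3′ on the strand of the gene.
Hnrnpd (GRCm38.p6 chr5:99978889-99979188, minus strand): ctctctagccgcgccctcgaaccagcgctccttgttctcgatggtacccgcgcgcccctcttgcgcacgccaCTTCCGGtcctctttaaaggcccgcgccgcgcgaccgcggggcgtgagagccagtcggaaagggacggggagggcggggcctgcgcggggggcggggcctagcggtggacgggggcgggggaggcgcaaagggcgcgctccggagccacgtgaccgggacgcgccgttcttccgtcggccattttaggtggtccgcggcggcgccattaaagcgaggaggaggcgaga
Prpf6 (GRCm38.p6 chr2:181601069-181601368, plus strand): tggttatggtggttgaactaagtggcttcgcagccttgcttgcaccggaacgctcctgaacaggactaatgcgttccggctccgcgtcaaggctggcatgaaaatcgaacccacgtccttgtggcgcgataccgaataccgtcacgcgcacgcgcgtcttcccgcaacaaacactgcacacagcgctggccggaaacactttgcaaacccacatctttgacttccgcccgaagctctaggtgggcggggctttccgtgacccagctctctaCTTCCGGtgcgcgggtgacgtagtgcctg
Hnrnph2 (GRCm38.p6 chrX:134600929-134601228, plus strand): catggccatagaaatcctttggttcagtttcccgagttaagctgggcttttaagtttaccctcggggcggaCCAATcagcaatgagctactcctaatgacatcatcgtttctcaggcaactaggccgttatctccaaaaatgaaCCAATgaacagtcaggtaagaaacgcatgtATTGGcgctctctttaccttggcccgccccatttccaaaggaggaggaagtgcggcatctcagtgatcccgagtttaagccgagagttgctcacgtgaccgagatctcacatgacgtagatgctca

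The promoters of Hnrnpd and Prpf6 each hold 1 ETS core and 45 and 29 CpG dinucleotides, and that of Hnrnph2 holds 3 CCAAT matches and 14 CpG. A RefSeq promoter was found for 75 of the 92 genes. CCGGAAG was present in 22 of them (29.3%), in 19.4% of promoters of detected named genes and in 8.9% of all RefSeq promoters. CCAAT was present in 46.7%, 39.6% and 37.4%, and TATAAA in 9.3%, 6.7% and 13.6%. AAGATGG, the core of a YY1 site, was found in 8.0%, 7.6% and 6.3%, and the NRF1 palindrome in 1.3%, 2.5% and 1.0%. The motifs were searched on both strands, the ETS and YY1 cores can overlap by a few bases, and a match describes letters only. The median of 24 CpG per 300 bases in splicing factor promoters compared with 22 in detected named genes and 7 in all promoters.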

How the data were processed

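The authors deposited RNA and H3K9me2 values as log2, with a column for each library. Per the submitters' processing notes, Trim Galore, HISAT2 2.1.0, Bowtie2 and Bismark 0.19.0 and the build GRCm38 were named; the counting method and its use of strand were not given in the sources used here. From the values, each library holds log2 of whole reads scaled to 1000000, with 0.9 read for an empty feature, and whole reads were recovered within 0.05 read for 100% of values. Of the H3K9me2 columns, 4 match no sample and were not used.

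Limma 3.58.1 in R 4.3.3 (data.table version 1.17.8) was fitted to the log2 values of all 38540 loci in 11 libraries with a mean per group, trend and robust moderation and no pseudocount. P-values were two-sided and adjusted over all loci, and a locus was called at an adjusted p under 0.05. Windows of 10 kb with a read in at least 1 library (255057) were tested alike. Scripts were tested on simulated data, with Python 3.11.15 (pandas 2.3.3, matplotlib 3.10.9 for plots). Roles, pathway lists and members were chosen with earlier results of these data known. Genes named are those called in a contrast (up to 15 each way), the 3 with most reads in each role, members with 3 reads or fewer, and the 5 largest pathway calls each way. Reads are not independent molecules, and no intervals on counts are given. The values of 1 member are not reported here. Bisulphite, input and IgG libraries were not analysed here.

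An opposite-strand locus overlaps 30 of the 94 loci (33.2% of all loci), and 93 matched a RefSeq gene by symbol, 91 of them at its position.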

Additional observations from a re-analysis of the deposited data

Results flagged for a closer look

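For 4 genes of splicing the effect of the cDKO differed from that of the G9a cKO in the test of the difference itself (limma, adjusted over all loci), which called 1.08% of all loci and 3.34% of detected loci. Of 21 alternatives, 13 ended the call for Sfpq (limma adjusted p up to 0.422), and 5 for Rbm25 (0.442). For Magoh 9 ended it and 1 reversed the sign, and for Ddx46 8 ended it and 1 reversed the sign. Rbm25 is described above, with a difference of -0.40 on the log2 scale (SE 0.09, limma adjusted p = 0.00368). Both cDKO libraries were below all 9 other libraries, and the 3 G9a cKO libraries lay within the range of the 6 controls.

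Ddx46, the helicase that remodels U2 at the branch point, measured 322, 332 and 347 RPM in GKAO controls, 366, 354 and 414 in G9a cKO, 514, 439.6 and 509 in GKAQ controls and 364 and 419 in cDKO. The difference between the effects was -0.50 (SE 0.12, limma adjusted p = 0.0121), and the GKAQ controls exceeded the GKAO controls by 0.55 (limma adjusted p = 1.17e-08). Sfpq, a splicing and paraspeckle protein, measured 489, 447 and 445 RPM in GKAO controls, 530.2, 437 and 486 in G9a cKO, 542, 587 and 514 in GKAQ controls and 426 and 438 in cDKO. Its difference was -0.41 (SE 0.11, limma adjusted p = 0.0419).

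Magoh, of the exon junction complex, had a positive difference of 0.76 (SE 0.13, limma adjusted p = 1.2e-05). It measured 473, 464 and 532 RPM in GKAO controls, 292, 365 and 383 in G9a cKO, 274, 293 and 275 in GKAQ controls and 441 and 256 in cDKO. Its GKAQ controls were -0.80 relative to the GKAO controls (limma adjusted p = 4.15e-16), and the cDKO libraries lay on either side of the GKAQ control range. The part of the control series in these differences was not tested.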

How the results depend on the processing

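The 2 cDKO libraries, shallow RNA counts and unstated strand limit these results, and no voom or limma alternative stands for the planned edgeR, DESeq2 and TMM analyses, which were not run because the deposited values are log2. In G9a cKO the count of 0 splicing factor loci became 3 with the 6 controls pooled and was 0 in every other alternative run. In cDKO the count of 12 became 5 with voom weights, 0 with log2(RPM + 1) and 0 without the trend and robust options, also after a filter at 1 RPM. It was 7 to 10 when a GKAQ control was left out, and 12 without any single GKAO library, whose group is not part of this comparison. It was 13 when log2(RPM + 1) or voom was combined with the 1 RPM filter, settings added after seeing the data. For the difference the count of 1 became 7 with the 6 controls pooled, where Magoh reversed to -0.0356 and Ddx46 to 0.0495 (limma adjusted p = 0.958 and 0.786), 5 after centring, 0 with voom, log2(RPM + 1) or no trend and robust options (0 with the filter), 2 with log2(RPM + 1) or voom plus the filter, and 1 to 11 when leaving out each library, where 11 came without GKAQ control replicate 1.

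Between control groups the count of 17 became 8 with voom, 4 with log2(RPM + 1), 0 without the trend and robust options (2 with the filter) and 9 to 20 when leaving out each library, the lowest without GKAO control replicate 3. With a replicate block on the title number the counts were 0 in G9a cKO, 0 in cDKO, 0 for the difference and 6 between controls, and Smn1, called lower in cDKO (-0.44, limma adjusted p = 0.00624), reversed to 0.11 (0.657) and was -0.03 without cDKO replicate 1 (0.905). Same-numbered libraries of different groups correlated by 0 to 0.113 in their deviations, and differently numbered ones of the same series by -0.122 to 0.003. With so few pairs these values cannot decide whether the numbers pair the libraries. H3K9me2 windows called in G9a cKO moved from 1 to 13 over all windows, 6 after centring, 4 with 10 kb added on each side and 0 to 9 when leaving out a library. In cDKO they moved from 0 to 4 over all windows, where empty windows take a value set by depth. The causes of the changes in count between settings were not tested.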

Other observations

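A few splicing factors that were not called still stood apart by library, and are named here after their values were seen. Srsf6, an SR protein, measured 10.97, 18.9 and 15.2 RPM in GKAO controls and 22.5, 29.5 and 24.5 in G9a cKO (0.79, limma adjusted p = 0.17), and 12.6, 12.9 and 15.3 RPM in GKAQ controls and 22.2 and 18.97 in cDKO (0.60, 0.365). In both mutants every library exceeded the 3 controls of its series. Rbm19, a protein of ribosome biogenesis, measured 54.7, 56.7 and 58.2 RPM in GKAQ controls and 38.1 and 40.9 in cDKO (-0.52, limma adjusted p = 0.124), below all 6 controls, with 67.2, 67.2 and 60.3 in G9a cKO.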
